A study of Homo sapiens with 21 samples.

Results

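The genes described here are 40 genes of the lysosome and of autophagy, found by symbol among the 57820 genes of the deposited expression table. Each symbol matched 1 row. They were followed in 21 RNA sequencing libraries of NLF, a human neuroblastoma cell line, and of lines made from it. There were 3 libraries in each of 7 groups. The lines are NLF itself (parental), sgCON, which carries Cas9 with a scrambled guide RNA as control, and the YAP1 knockout lines YAPKO1 and YAPKO2, each with Cas9 and a YAP1 guide. The sgCON, YAPKO1 and YAPKO2 lines received DMSO or 20 nM trametinib, an inhibitor of the kinases MEK1 and MEK2, for 72 h from 24 h after plating. The parental cells were also given DMSO, so they are a vehicle group and not an untreated one. Cas9 is shared by sgCON and both knockout lines and was not named for the parental cells. Each knockout line was made with 1 guide, so guide and line cannot be told apart. YAP1 encodes a transcriptional coactivator restrained by the Hippo pathway, and the study concerns its part in the response to trametinib.

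Lysosomes are acidic compartments in which hydrolases break down proteins, sugars, sulfated molecules and lipids, and a proton pump, the V-ATPase, keeps them acid. Autophagy encloses parts of the cytoplasm in a double membrane and delivers them to the lysosome. The transcription factors TFEB, TFE3 and MITF are known to bind E-box sequences in the promoters of many of these genes, in an extended form called the CLEAR element, and are regulated mainly by phosphorylation and by their place in the cell, by kinases that include mTORC1 and ERK. Their activity was not measured here, and RNA levels are not a measure of it.

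RefSeq promoters of 250 bases before to 50 bases after the start site were held for 28 of the 40 genes in build GRCh38.p14, and were searched on both strands for TCACGTGA (the core of the CLEAR element), CACGTG (the E-box, which lies within it) and TCATGTG (the M-box core). TCACGTGA was found in 5 of the 28 promoters (17.9%), against 283 of 27305 promoters of the table (1.04%). CACGTG was found in 8 of 28 (28.6%), against 2030 (7.43%), and TCATGTG in 6 of 28 (21.4%), against 817 (2.99%). A match describes the letters only and shows no binding. The windows below are those of the 5 genes with the CLEAR core and of 5 others whose RNA differed between groups in several comparisons. They run 5′ to 3′ on the gene's strand and end at or before the start site, and capitals mark each complete match.
LAMP1 (chr13:113297170-113297238, plus strand): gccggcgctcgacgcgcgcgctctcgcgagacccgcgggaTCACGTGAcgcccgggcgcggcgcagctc
CTSA (chr20:45891269-45891334, plus strand): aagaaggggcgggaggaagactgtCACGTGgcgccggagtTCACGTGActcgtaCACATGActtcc
GAA (chr17:80101464-80101561, plus strand): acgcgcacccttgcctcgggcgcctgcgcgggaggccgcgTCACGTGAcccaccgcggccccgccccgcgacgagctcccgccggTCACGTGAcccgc
MCOLN1 (chr19:7522542-7522623, plus strand): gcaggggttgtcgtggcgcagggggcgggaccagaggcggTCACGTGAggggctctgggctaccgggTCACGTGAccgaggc
ATP6V0D1 (chr16:67481160-67481257, minus strand): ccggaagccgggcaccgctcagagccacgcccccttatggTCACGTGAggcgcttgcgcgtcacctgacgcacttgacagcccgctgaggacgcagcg
CTSF (chr11:66568674-66568769, minus strand): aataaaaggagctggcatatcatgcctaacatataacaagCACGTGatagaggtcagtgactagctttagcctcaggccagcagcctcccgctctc
NEU1 (chr6:31862892-31862987, minus strand): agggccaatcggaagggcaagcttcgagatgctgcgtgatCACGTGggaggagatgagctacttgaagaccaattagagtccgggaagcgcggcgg
GRN (chr17:44345052-44345136, plus strand): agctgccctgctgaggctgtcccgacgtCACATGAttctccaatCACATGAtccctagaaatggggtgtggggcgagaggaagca
SCARB2 (chr4:76213881-76213977, minus strand): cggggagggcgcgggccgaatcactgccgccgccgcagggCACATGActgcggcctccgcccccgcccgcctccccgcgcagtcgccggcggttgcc
GLMP (chr1:156295680-156295731, minus strand): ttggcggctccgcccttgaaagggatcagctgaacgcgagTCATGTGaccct
The windows of GAA and MCOLN1 hold 2 copies of the CLEAR core each. The searched promoters hold more matches outside the windows. That of LAMP1 has another CLEAR core, which runs over the start site, and further E-boxes upstream. That of CTSF has another E-box. The promoter of WIPI1, the gene with the largest number of differences below, held none of the 3 motifs.

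Values are FPKM, which count fragments relative to transcript length and library size. They were scaled between libraries by the median ratio over the genes above 0 in every library. Changes are differences of log2(FPKM + 0.5) ± SE from limma, fitted over the 16092 genes that reached 1 FPKM in 3 or more libraries. A gene was called where the Benjamini-Hochberg adjusted p over all these genes was under 0.05, and every adjusted p below is from that limma fit. YAP1 RNA was 25.6 ± 1.85 FPKM in sgCON, 11.7 ± 2.31 in YAPKO1 and 2.89 ± 0.25 in YAPKO2 cells with DMSO (mean ± SD, n = 3). DUSP6, a target of ERK, was 24.4 ± 2.42 FPKM with DMSO and 2.69 ± 0.86 with trametinib in sgCON cells. It went from 8.74 ± 0.68 to 0.43 ± 0.25 FPKM in YAPKO1 and from 6.34 ± 0.66 to 0.43 ± 0.05 in YAPKO2 cells. With DMSO it was thus already lower in the knockout lines than in sgCON, by -1.43 ± 0.19 and -1.87 ± 0.19 (limma adjusted p = 6.8e-05 and 1.59e-06). HAND2, a marker of neuroblastoma, stood at 60.9 FPKM or more in every library, TH was at 0 in 11 libraries, and 9 macrophage markers summed to 1.12 to 3.22 FPKM. The 6 fibroblast markers summed to 713 to 774 FPKM in parental, 345 to 468 in sgCON, 81.1 to 398 in YAPKO1 and 159 to 577 in YAPKO2 libraries, and their part in the results was not tested. Depth relative to a parental library, read from the steps of low values, ran from 0.758 to 1.65. Libraries differed in how levels followed the GC content of transcripts: the median deviation in log2 level of the protein-coding genes with at least 57.1% GC, minus that of those with at most 42% GC, ran from -0.61 to 1.37. It stood highest in YAPKO2 trametinib replicate 2 (1.37) and reached 0.72 and -0.25 in replicates 1 and 3 of that group, while the sgCON values lay between -0.49 and -0.15.

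Of the 40 genes 39 passed the filter on low values. CTSZ, a carboxypeptidase, stayed at 0 to 0.524 FPKM in every library and was not tested. Per length, the highest mean levels over the 21 libraries were those of PSAP (130.2 FPKM), the proton pump subunit ATP6V0E1 (120.6), the autophagy receptor SQSTM1 (109.7), the protease CTSB (81.4) and the membrane protein LAMP1 (66.6). The ranges over libraries of these neighbours overlapped, so their order is not sharp. The lowest among the tested genes were MITF (2.26), ARSA (1.89), GLMP (1.37) and TFEB (0.760), and TFE3 stood at 7.70 FPKM. The heat map of all 39 genes shows that most stayed within a narrow band, and that GLMP and WIPI1 stood apart by line.

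**Figure D1:**
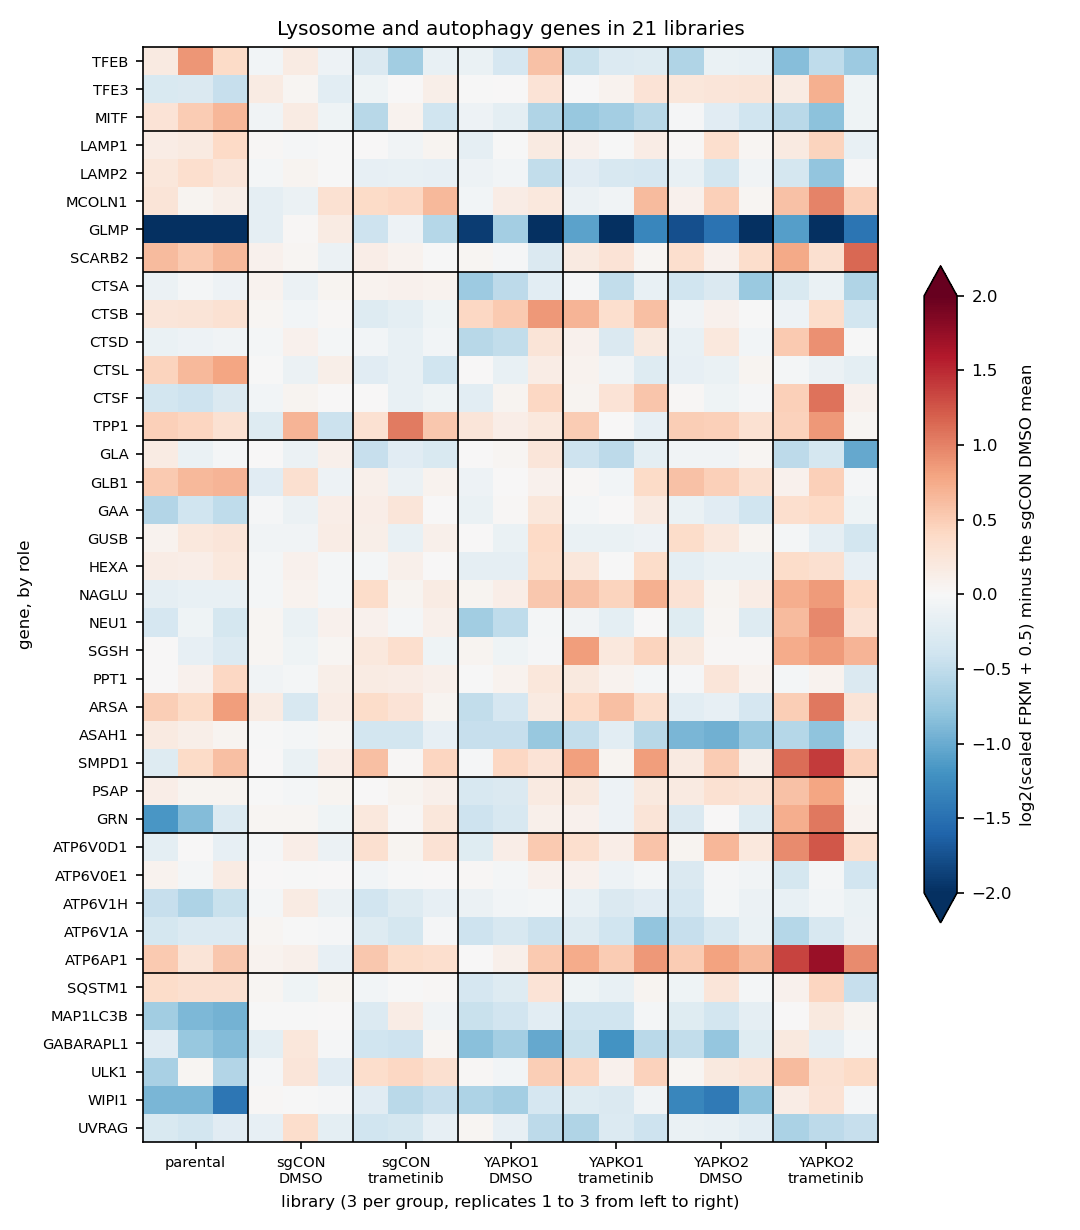
Log2(scaled FPKM + 0.5) of the 39 tested genes (rows, grouped by role) in the 21 libraries (columns, 3 per group), as the difference from the mean of the sgCON DMSO libraries, with red higher and blue lower. GLMP was below sgCON in all parental and knockout libraries, and WIPI1 was low in YAPKO2 cells with DMSO and not with trametinib.

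Of the 10 comparisons, 3 set trametinib against DMSO within a line. In sgCON cells 0 of the 39 genes were called, where 5.22% of all tested genes were, and the median change of the 39 genes was 0.01. At an unadjusted p under 0.05 limma gave 3 higher and 5 lower there, and 1 gene was called with a GC correction or without sgCON DMSO replicate 2. In YAPKO1 cells 1 of 39 was called, SGSH, which was higher (7.85% of all genes were called, 3.97% higher), and the count was 0 without any 1 of DMSO replicates 1 and 2 and trametinib replicates 1 and 3, and 3 without DMSO replicate 3, SGSH not among them. In YAPKO2 cells 12 of 39 were called (30.8%, against 20.1% of all genes), 10 of them higher and 2 lower, where 8.59% and 11.5% of all genes were. The median change of the 39 genes in YAPKO2 cells was 0.24, and that of all genes -0.01; with the GC correction described below the former was 0.13. The 10 genes called higher were WIPI1, ARSA, GRN, NEU1, ATP6AP1, SGSH, CTSF, NAGLU, SCARB2 and GAA, and those called lower were GLA and GUSB. The number called was 7 without replicate 1, and 7 without replicate 2, of the YAPKO2 trametinib libraries. WIPI1, SGSH, NEU1, ATP6AP1 and GLA stayed called when any 1 library of the comparison was left out.

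**Figure D2:**
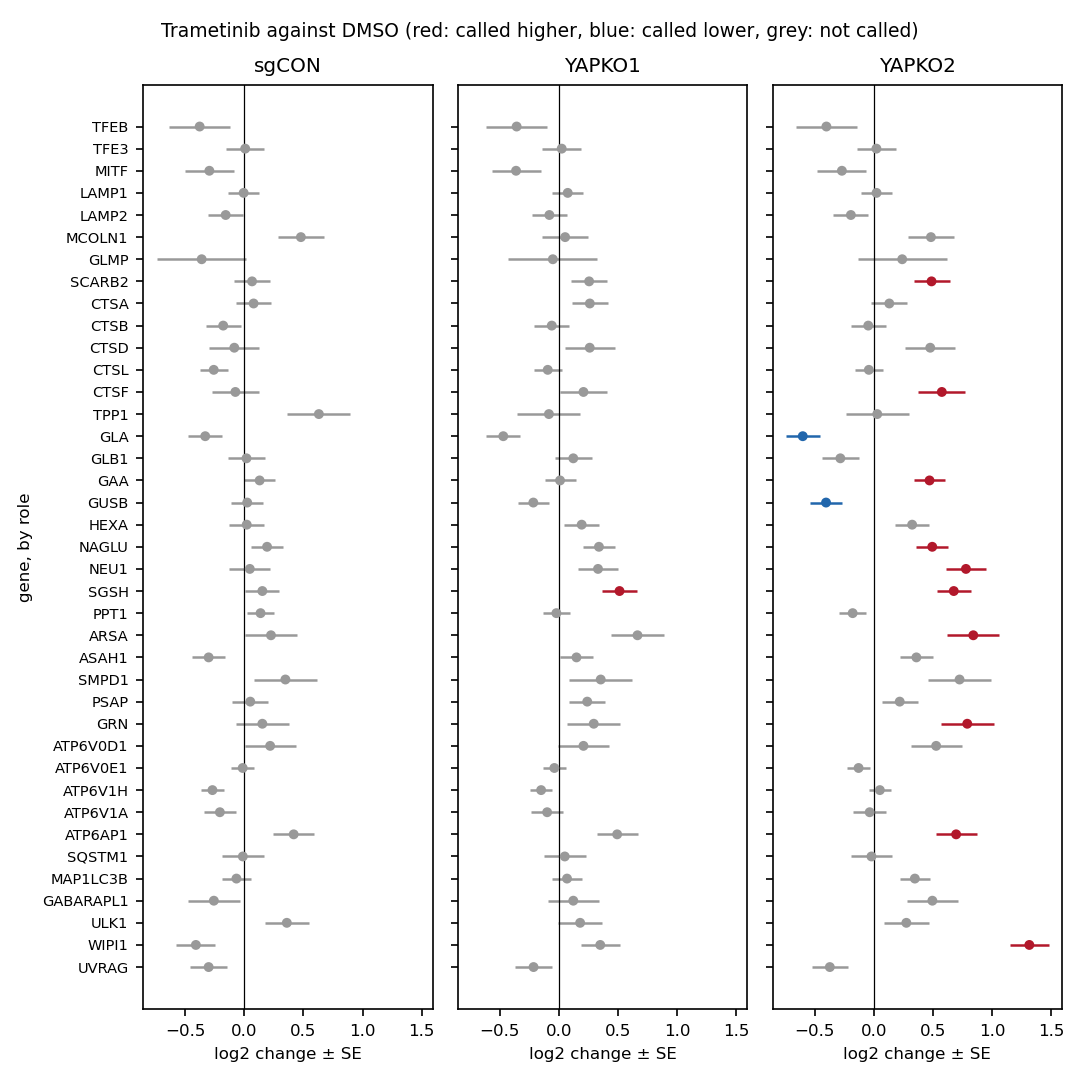
Change with trametinib (x axis, log2(FPKM + 0.5) difference ± SE from limma, n = 3 against 3) of the 39 tested genes in sgCON, YAPKO1 and YAPKO2 cells, with red for called higher, blue for called lower and grey for not called. Coloured points number 0, 1 and 12 in the 3 panels, and WIPI1 lies farthest to the right in YAPKO2 cells at 1.32.

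The change with trametinib in YAPKO2 cells minus that in sgCON cells was called for 1 of the 39 genes, WIPI1 (2.6%, against 4.83% of all genes; 3 without YAPKO2 trametinib replicate 2 or 3), and for 0 in YAPKO1 cells (0.249% of all genes), where limma gave 2 higher and 0 lower at an unadjusted p under 0.05. With the GC correction ASAH1, NEU1, SCARB2 and CTSD were called too in YAPKO2 cells, all 4 higher, by 0.69, 0.70, 0.45 and 0.51 (adjusted p = 0.000273, 0.00616, 0.00863 and 0.0414). This made 12.8% of the 39 genes called, against 10.7% of all genes. In YAPKO1 cells ASAH1 was called with that correction, higher by 0.46 (adjusted p = 0.0406), which is 2.56% of the 39 genes, against 0.986% of all genes. Without the correction this difference was 0.449 ± 0.195 (adjusted p = 0.608). The count of 12 against 0 calls is therefore no test that the lines differ for the other genes. With DMSO, the YAPKO1 line had 1 gene above and 5 below sgCON (15.4% of 39, against 12% of all genes, 6.18% above and 5.81% below). The YAPKO2 line had 2 above and 4 below (15.4%, against 27.1%, 14.1% above and 13.1% below). With trametinib, YAPKO1 had 1 above and 1 below (5.1%, against 15%, 7.81% and 7.18%), and YAPKO2 had 10 above and 2 below (30.8%, against 36.3%, 17.7% and 18.6%). Of the 39 genes 6 were higher and 3 lower in sgCON DMSO than in parental cells (23.1%, against 15.9%, 7.99% and 7.87%). Apart from the trametinib response of YAPKO2 and the sgCON line against parental cells, the total share called of the 39 genes was below that of all genes or within 4 percentage points of it. Without sgCON DMSO replicate 2 or YAPKO1 DMSO replicate 3 the YAPKO1 count with DMSO was 2 or 3, and without sgCON DMSO replicate 3 the YAPKO2 count was 3. With trametinib the YAPKO1 count was 1 without any 1 sgCON library or without YAPKO1 replicate 3, and the YAPKO2 count was 3 or 7 without sgCON replicate 2 or 3 and 7 or 6 without YAPKO2 replicate 1 or 2. The sgCON against parental count was 5 without sgCON DMSO replicate 3. In all, 24 of the 39 genes were called in at least 1 of the 10 comparisons. The same count over all tested genes was not made, so this number cannot be set against a background. In YAPKO2 against sgCON cells with trametinib alone, 36.3% of all genes were called. The comparisons share the sgCON libraries. Since the cells were measured in bulk, fewer cells with a gene's RNA and less RNA per cell cannot be told apart.

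The MiT/TFE factors TFEB, TFE3 and MITF were called in 0 comparisons. TFEB stood at 1.03, 1.99 and 1.26 FPKM in parental cells, 0.795, 1.02 and 0.758 in sgCON cells with DMSO and 0.61, 0.333 and 0.72 with trametinib. YAPKO1 cells had 0.728, 0.566 and 1.53 with DMSO and 0.491, 0.624 and 0.634 with trametinib, and YAPKO2 cells had 0.39, 0.739 and 0.718 with DMSO and 0.245, 0.456 and 0.321 with trametinib. The sgCON groups did not overlap and the groups of both knockout lines did, with changes of -0.38 ± 0.26, -0.36 ± 0.26 and -0.40 ± 0.26 in sgCON, YAPKO1 and YAPKO2 (adjusted p = 0.497, 0.47 and 0.308). These levels are near or below the filter, where the pseudocount of 0.5 understates a change. MITF, the factor of the melanocyte lineage, stood at 3.23, 3.85 and 4.39 FPKM in parental cells, 2.42, 2.94 and 2.38 in sgCON with DMSO and 1.59, 2.72 and 1.83 with trametinib. YAPKO1 cells had 2.38, 2.18 and 1.53 with DMSO and 1.33, 1.42 and 1.6 with trametinib, and YAPKO2 cells had 2.54, 2.14 and 1.82 with DMSO and 1.61, 1.24 and 2.39 with trametinib. All its trametinib groups overlapped the DMSO groups of the same line, and the parental libraries were above every sgCON library (sgCON minus parental -0.48 ± 0.21, adjusted p = 0.129). TFE3, a factor of the same family, was 5.81, 5.89 and 5.17 FPKM in parental, 8.26, 7.51 and 6.23 in sgCON DMSO and 6.81, 7.29 and 7.93 in sgCON trametinib libraries. YAPKO1 cells had 7.28, 7.31 and 8.95 with DMSO and 7.33, 7.67 and 8.91 with trametinib, and YAPKO2 cells had 8.61, 8.72 and 8.76 with DMSO and 8.23, 12.3 and 6.81 with trametinib. Its change with trametinib was between 0.01 and 0.02 in the 3 lines, each with an SE of 0.16.

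Among the 6 autophagy genes, WIPI1 differed in 6 of the 10 comparisons. It encodes a protein that binds phosphatidylinositol 3-phosphate on the forming autophagosome. Its RNA was 9.67, 9.73 and 6.6 FPKM in parental cells, 19.1, 18.7 and 18.4 in sgCON cells with DMSO and 15.9, 12.7 and 13.5 with trametinib. YAPKO1 cells had 12, 11.5 and 14.7 with DMSO and 15.6, 15.3 and 17.9 with trametinib, and YAPKO2 cells had 7.29, 6.72 and 10.5 with DMSO and 20.8, 23 and 18.5 with trametinib. With DMSO the sgCON libraries were above all parental, YAPKO1 and YAPKO2 libraries, and the YAPKO2 trametinib libraries were all above those with DMSO. The change with trametinib was -0.41 ± 0.17 in sgCON (adjusted p = 0.192), 0.35 ± 0.17 in YAPKO1 (adjusted p = 0.233) and 1.32 ± 0.17 in YAPKO2 cells (adjusted p = 2.24e-05). The response in YAPKO2 minus that in sgCON was 1.73 ± 0.23 (adjusted p = 0.000287), and in YAPKO1 minus sgCON 0.76 ± 0.23 (adjusted p = 0.288). Against sgCON with DMSO, WIPI1 was lower in both knockout lines, with -0.55 ± 0.17 in YAPKO1 and -1.18 ± 0.17 in YAPKO2 cells (adjusted p = 0.037 and 5.4e-05), and with trametinib it was higher in YAPKO2 cells by 0.55 ± 0.17 (adjusted p = 0.0154). The YAPKO1 difference with DMSO stayed called in 1 of the 6 fits that left out 1 library, and the YAPKO2 difference with trametinib was lost without replicate 2 of sgCON or of YAPKO2 with trametinib. WIPI1 was higher in sgCON than in parental cells by 1.09 ± 0.17 (adjusted p = 0.000204), and the ranges of the parental and the YAPKO2 DMSO libraries overlap. The exons of ARSG overlap WIPI1 on the opposite strand, and whether strand was used in the quantification is not given in the sources used here. ARSG stood at 3.11 to 6.27 FPKM over all libraries and was called in 0 comparisons, with a change of -0.30 ± 0.19 in YAPKO2 cells with trametinib.

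MAP1LC3B and GABARAPL1 encode proteins of the LC3 and GABARAP families, which are joined to lipid on autophagosome membranes. MAP1LC3B stood at 5.6, 4.82 and 4.62 FPKM in parental, 9.33, 9.4 and 9.48 in sgCON DMSO and 7.7, 10.5 and 8.88 in sgCON trametinib libraries. YAPKO1 cells had 6.79, 7.09 and 8.02 with DMSO and 7.02, 7.03 and 9.11 with trametinib, and YAPKO2 cells had 7.83, 7.19 and 8.28 with DMSO and 9.43, 10.8 and 9.82 with trametinib. All parental libraries were below all sgCON DMSO libraries (0.85 ± 0.13, adjusted p = 0.000174), and the change with trametinib in YAPKO2 cells, 0.35 ± 0.13, was not called (adjusted p = 0.0608) although its groups did not overlap. GABARAPL1 was 6, 4.03 and 3.66 FPKM in parental, 6.16, 8.4 and 6.98 in sgCON DMSO and 5.29, 5.22 and 7.34 in sgCON trametinib libraries. YAPKO1 cells had 3.77, 4.29 and 3.23 with DMSO and 5.08, 2.84 and 4.76 with trametinib, and YAPKO2 cells had 4.89, 3.98 and 5.92 with DMSO and 8.26, 6.21 and 6.91 with trametinib. It was lower in YAPKO1 than in sgCON cells with DMSO, with no overlap (-0.85 ± 0.22, adjusted p = 0.0162), a call lost without YAPKO1 DMSO replicate 3 or sgCON DMSO replicate 2. The autophagy receptor SQSTM1, the initiating kinase ULK1 and UVRAG, a partner of the kinase that makes phosphatidylinositol 3-phosphate, were called in 0 comparisons. SQSTM1 changed by -0.01, 0.05 and -0.02 with trametinib in sgCON, YAPKO1 and YAPKO2 cells, each with an SE of 0.18. With the GC correction SQSTM1 was called lower in sgCON than in parental cells (-0.38, limma adjusted p = 0.00401). It was then also lower in YAPKO2 than in sgCON cells with trametinib (-0.23, adjusted p = 0.0434).

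**Figure D3:**
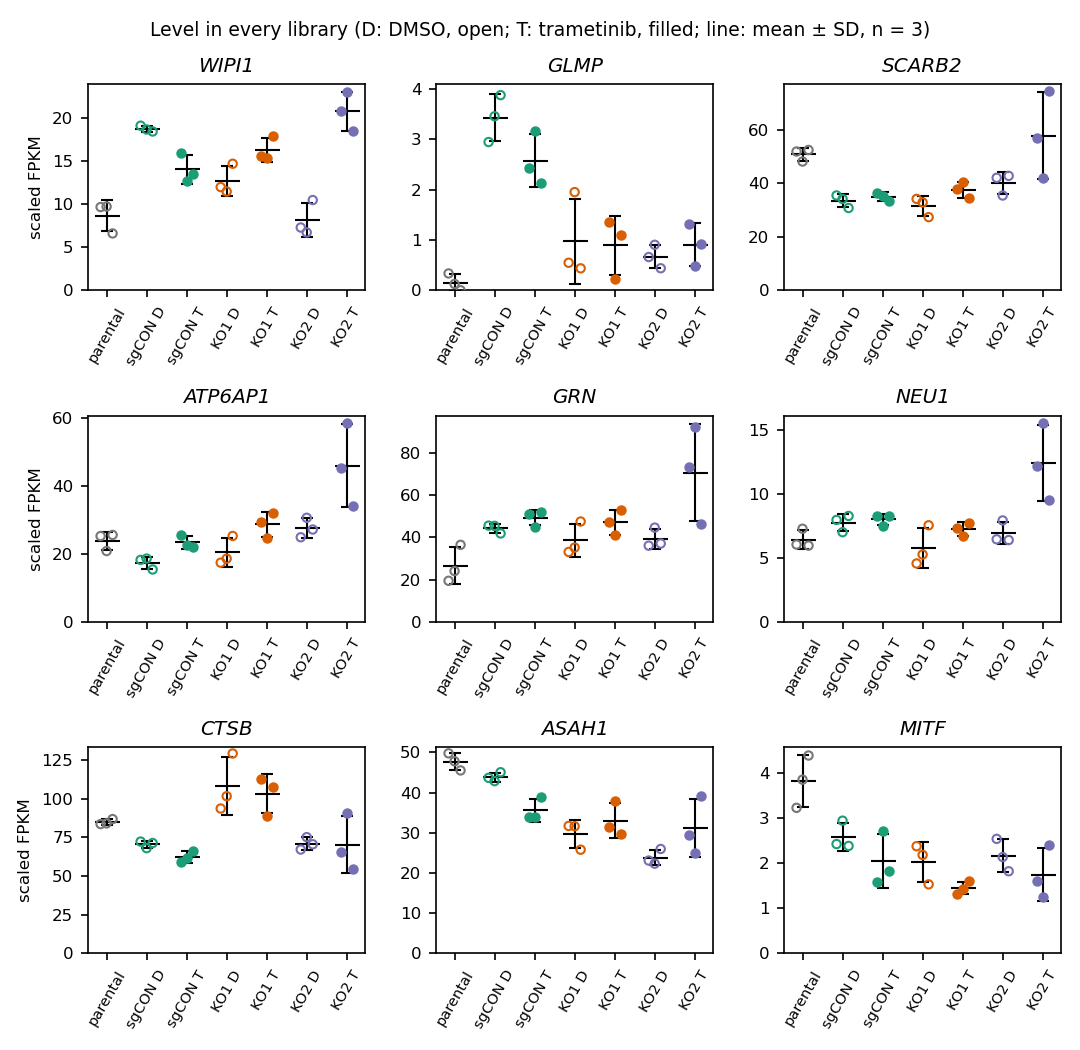
Scaled FPKM (y axis) of 9 of the genes in each library (points; open for DMSO and parental, filled for trametinib) with mean ± SD of 3 libraries (lines); KO1 and KO2 are YAPKO1 and YAPKO2, D is DMSO and T trametinib. WIPI1 lies between 6.72 and 10.5 in YAPKO2 cells with DMSO and between 18.5 and 23.0 with trametinib, and the YAPKO2 trametinib libraries are spread widely for GRN, ATP6AP1 and SCARB2.

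Of the 5 membrane proteins, GLMP and SCARB2 were called in several comparisons and LAMP1, LAMP2 and MCOLN1 in 0 without the GC correction. GLMP, a glycoprotein of the lysosomal membrane, stood at 0.334, 0.125 and 0 FPKM in parental cells, 2.95, 3.46 and 3.88 in sgCON cells with DMSO and 2.42, 3.16 and 2.14 with trametinib. YAPKO1 cells had 0.546, 1.95 and 0.436 with DMSO and 1.35, 0.23 and 1.09 with trametinib, and YAPKO2 cells had 0.66, 0.904 and 0.437 with DMSO and 1.33, 0.476 and 0.914 with trametinib. Every sgCON library was above every parental and knockout library. The difference from sgCON with DMSO was -1.55 ± 0.38 in YAPKO1 and -1.76 ± 0.38 in YAPKO2 cells (adjusted p = 0.0116 and 0.00235), and with trametinib -1.24 ± 0.38 and -1.16 ± 0.38 (adjusted p = 0.0342 and 0.0227). Of the fits that left out 1 library, the YAPKO1 call with trametinib stood in 1 of 6 and that of YAPKO2 in 4 of 6, and the YAPKO1 call with DMSO was lost without YAPKO1 DMSO replicate 3. sgCON was above parental cells by 2.61 ± 0.38 (adjusted p = 0.000135), and the knockout means lay between those of parental and sgCON cells. Its change with trametinib was -0.36 to 0.24 over the lines and was not called. The exons of TMEM79 overlap GLMP on the opposite strand. TMEM79 was called in 1 comparison, with 0.62 ± 0.21 in YAPKO2 against sgCON cells with trametinib (adjusted p = 0.0252).

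SCARB2, which carries the enzyme glucocerebrosidase to the lysosome, stood at 51.9, 48.1 and 52.5 FPKM in parental cells, 35.5, 34.1 and 30.8 in sgCON DMSO and 36.5, 35.1 and 33.4 in sgCON trametinib libraries. YAPKO1 cells had 34.2, 32.9 and 27.4 with DMSO and 37.8, 40.5 and 34.4 with trametinib, and YAPKO2 cells had 42.1, 35.4 and 42.8 with DMSO and 57, 41.9 and 74.6 with trametinib. The YAPKO2 trametinib libraries were spread from 41.9 to 74.6 and overlapped those with DMSO. The change with trametinib in YAPKO2 cells was 0.49 ± 0.15 (adjusted p = 0.0308), and was lost without any 1 of YAPKO2 DMSO replicates 1 and 2 and trametinib replicates 1 and 3. SCARB2 was higher in YAPKO2 than in sgCON cells with trametinib by 0.68 ± 0.15 (adjusted p = 0.00224) and lower in sgCON than in parental cells (-0.60 ± 0.15, adjusted p = 0.0119), a call lost without sgCON DMSO replicate 3. With the GC correction the change in YAPKO2 cells was 0.60 and the difference with trametinib 0.96, both called (limma adjusted p = 8.94e-06 and 1.75e-08). SCARB2 was then also called higher in YAPKO2 than in sgCON cells with DMSO, by 0.505 (adjusted p = 5.19e-05). Its transcript has a GC content of 42.8%, and it was highest in replicate 3 of YAPKO2 with trametinib, where the GC-rich genes below were lowest. LAMP1 and LAMP2, the main glycoproteins of the lysosomal membrane, changed with trametinib by -0.01 to 0.07 and by -0.19 to -0.08 over the 3 lines. The calcium channel MCOLN1 changed by 0.48 ± 0.20 in sgCON, 0.05 ± 0.20 in YAPKO1 and 0.48 ± 0.20 in YAPKO2 cells (adjusted p = 0.201, 0.913 and 0.094). With the GC correction LAMP2 (37.7% GC) was called higher in YAPKO2 than in sgCON cells, by 0.32 with DMSO and 0.28 with trametinib (adjusted p = 0.0254 and 0.0352). Without it these differences were -0.20 ± 0.15 and -0.23 ± 0.15. The correction also made MCOLN1 lower in YAPKO1 than in sgCON cells with trametinib (-0.52, adjusted p = 0.0278). LAMP1 was then lower in sgCON than in parental cells (-0.25, adjusted p = 0.0197).

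Of the 6 tested proteases, CTSA, CTSB, CTSF, CTSL and CTSD were called in at least 1 comparison and TPP1 in 0. CTSB, a cysteine protease, stood at 83.5, 83.9 and 86.7 FPKM in parental, 72.2, 67.9 and 71.3 in sgCON DMSO and 58.9, 61.6 and 66.2 in sgCON trametinib libraries. YAPKO1 cells had 93.5, 102 and 129 with DMSO and 113, 88.9 and 108 with trametinib, and YAPKO2 cells had 67, 75 and 70.4 with DMSO and 65.5, 90.5 and 54.3 with trametinib. All YAPKO1 libraries were above the sgCON libraries of the same treatment, by 0.60 ± 0.15 with DMSO and 0.72 ± 0.15 with trametinib (adjusted p = 0.013 and 0.00329). The call with DMSO was lost without sgCON DMSO replicate 2 or YAPKO1 DMSO replicate 3. In YAPKO2 cells the differences were 0.01 ± 0.15 and 0.14 ± 0.15 and were not called (adjusted p = 0.982 and 0.489), and YAPKO2 was not tested against YAPKO1.

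CTSA, a carboxypeptidase that also protects NEU1 and beta-galactosidase, stood at 27.5, 28.9 and 27.8 FPKM in parental, 31.3, 27.4 and 30.8 in sgCON DMSO and 31.5, 31.7 and 31.4 in sgCON trametinib libraries. YAPKO1 cells had 17.9, 20.6 and 25.6 with DMSO and 29.2, 21.1 and 26.7 with trametinib, and YAPKO2 cells had 22.4, 24.3 and 17.6 with DMSO and 24.1, 27 and 19.4 with trametinib. It was lower than in sgCON, without overlap, in YAPKO1 cells with DMSO (-0.48 ± 0.15, adjusted p = 0.0441) and in YAPKO2 cells with DMSO (-0.48 ± 0.15, adjusted p = 0.0259) and trametinib (-0.43 ± 0.15, adjusted p = 0.0345). The YAPKO1 call stood in 1 of 6 fits that left out 1 library, and the YAPKO2 calls in 3 and 1 of 6. With the GC correction these differences were -0.60, -0.68 and -0.69, all called (limma adjusted p = 0.000172, 2.33e-05 and 1.37e-05). That of YAPKO1 with trametinib was then called too (-0.47, adjusted p = 0.00132). Exons of PLTP and NEURL2 overlap CTSA on the opposite strand. CTSF, another cysteine protease, stood at 3.86, 3.71 and 4.07 FPKM in parental, 4.88, 5.32 and 5.11 in sgCON DMSO and 5.15, 4.54 and 4.77 in sgCON trametinib libraries. YAPKO1 cells had 4.33, 5.35 and 6.93 with DMSO and 5.33, 6.24 and 7.72 with trametinib, and YAPKO2 cells had 5.17, 4.78 and 5.04 with DMSO and 7.32, 11.3 and 5.43 with trametinib. All YAPKO2 trametinib libraries were above those with DMSO (0.58 ± 0.20, adjusted p = 0.049) and above sgCON with trametinib (0.62 ± 0.20, adjusted p = 0.021). Without YAPKO2 trametinib replicate 2 the first of these was 0.31 and was not called, and the second was lost too. The change with trametinib stood in 1 of 6 such fits and the difference from sgCON in 3 of 6, and with the GC correction the latter was 0.33 and not called (adjusted p = 0.0593). CTSL, a cysteine protease, stood at 21.2, 24.7 and 27 FPKM in parental and 15.5, 14.3 and 16.9 in sgCON DMSO libraries. With trametinib sgCON cells had 13.2, 13.9 and 11.7 FPKM, and all YAPKO1 and YAPKO2 libraries lay between 12.8 and 17.3. CTSL was lower in sgCON than in parental cells (-0.62 ± 0.12, adjusted p = 0.00155), and the parental libraries lay above all others. CTSD, an aspartic protease, was higher in YAPKO2 than in sgCON cells with trametinib by 0.56 ± 0.21 (adjusted p = 0.0448). This call was kept in 1 of 6 fits that left out 1 library and in 3 of the 10 alternative settings. With the GC correction the difference was 0.25 and not called (adjusted p = 0.075).

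The 12 enzymes of sugars, sulfates and lipids held 7 of the 12 calls with trametinib in YAPKO2 cells, 5 higher and 2 lower, with a median change of 0.42 (20.1% of all genes were called, 8.59% higher and 11.5% lower). Of these 7 calls 4 were lost without replicate 2 of the YAPKO2 trametinib libraries. SGSH, which removes sulfate from heparan sulfate, stood at 5.98, 5.28 and 4.82 FPKM in parental, 6.15, 5.58 and 6.17 in sgCON DMSO and 6.98, 7.64 and 5.59 in sgCON trametinib libraries. YAPKO1 cells had 6.18, 5.6 and 5.88 with DMSO and 11, 6.94 and 8.31 with trametinib, and YAPKO2 cells had 6.91, 6.06 and 6.07 with DMSO and 10.3, 11.1 and 9.86 with trametinib. The trametinib libraries of both knockout lines were above their DMSO libraries, by 0.51 ± 0.14 in YAPKO1 (adjusted p = 0.0356) and 0.68 ± 0.14 in YAPKO2 cells (adjusted p = 0.00281), against 0.15 ± 0.14 in sgCON (adjusted p = 0.657). The YAPKO1 call stood in 1 of 6 fits that left out 1 library, that without trametinib replicate 2. The differences from the sgCON response, 0.36 ± 0.20 and 0.52 ± 0.20, were not called (adjusted p = 0.802 and 0.181). With trametinib SGSH was higher in YAPKO2 than in sgCON cells by 0.60 ± 0.14 (adjusted p = 0.00342), a call lost with the GC correction, as was that in YAPKO1 cells with trametinib. Exons of SLC26A11 and CARD14 overlap SGSH on the opposite strand.

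NEU1, a sialidase, stood at 6.03, 7.27 and 5.95 FPKM in parental, 7.95, 7 and 8.27 in sgCON DMSO and 8.24, 7.49 and 8.28 in sgCON trametinib libraries. YAPKO1 cells had 4.55, 5.26 and 7.54 with DMSO and 7.33, 6.68 and 7.75 with trametinib, and YAPKO2 cells had 6.44, 7.92 and 6.38 with DMSO and 12.2, 15.5 and 9.53 with trametinib. The 3 YAPKO2 trametinib libraries were the highest of all 21. The change with trametinib in YAPKO2 cells was 0.78 ± 0.17 (adjusted p = 0.0037), and the response minus that of sgCON was 0.73 ± 0.24 and was not called (adjusted p = 0.106), although it was with the GC correction (0.70, adjusted p = 0.00616). That correction also called NEU1 lower than in sgCON with DMSO, at -0.52 in YAPKO1 and -0.33 in YAPKO2 cells (adjusted p = 0.00255 and 0.0277). Without it these differences were -0.42 ± 0.17 and -0.16 ± 0.17 and were not called. ASAH1, the acid ceramidase, stood at 49.8, 47.8 and 45.5 FPKM in parental, 43.7, 42.9 and 45.1 in sgCON DMSO and 33.9, 34 and 38.9 in sgCON trametinib libraries. YAPKO1 cells had 31.7, 31.6 and 25.8 with DMSO and 31.4, 38 and 29.6 with trametinib, and YAPKO2 cells had 23.1, 22.3 and 26 with DMSO and 29.5, 24.9 and 39.1 with trametinib. With DMSO every knockout library was below every sgCON library, with differences of -0.56 ± 0.14 in YAPKO1 and -0.87 ± 0.14 in YAPKO2 cells (adjusted p = 0.0123 and 0.000175). With the GC correction they were -0.37 and -0.57, both called, and the YAPKO1 call was lost without YAPKO1 DMSO replicate 3. With trametinib the differences from sgCON were -0.11 ± 0.14 and -0.21 ± 0.14 and were not called (adjusted p = 0.616 and 0.246). GLB1, the lysosomal beta-galactosidase, stood at 15.2, 16.6 and 16.9 FPKM in parental, 8.84, 13.2 and 9.62 in sgCON DMSO and 11.2, 9.54 and 10.9 in sgCON trametinib libraries. YAPKO1 cells had 9.65, 10.4 and 11 with DMSO and 10.5, 9.96 and 13.8 with trametinib, and YAPKO2 cells had 15.8, 14.6 and 13.1 with DMSO and 11, 14.6 and 10.2 with trametinib. The parental libraries were above all sgCON libraries (sgCON minus parental -0.62 ± 0.16, adjusted p = 0.0116), a call lost without sgCON DMSO replicate 1 or 3. The call in YAPKO2 against sgCON cells with DMSO (0.46 ± 0.16, adjusted p = 0.0383) rests on overlapping groups and was lost under 7 of the 10 alternative settings.

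GLA, alpha-galactosidase A, and GUSB, beta-glucuronidase, were the 2 enzymes called lower with trametinib in YAPKO2 cells. GLA was 29.1, 29 and 31.3 FPKM with DMSO and 21, 23.8 and 14.7 with trametinib there, 30.6, 31.3 and 36.3 and 22.9, 21.1 and 26.6 in YAPKO1, and 30.9, 28.3 and 32.8 and 22.1, 26 and 24.7 in sgCON cells. In all 3 lines the trametinib libraries lay below those with DMSO, with changes of -0.33 ± 0.14 in sgCON, -0.47 ± 0.14 in YAPKO1 and -0.60 ± 0.14 in YAPKO2 cells (adjusted p = 0.234, 0.0542 and 0.00666). The other called enzymes were ARSA at 0.84 ± 0.22, NAGLU at 0.49 ± 0.14, GAA at 0.47 ± 0.13 and GUSB at -0.40 ± 0.13 (adjusted p = 0.0119, 0.0157, 0.0168 and 0.0397). They remove sulfate from sulfatide (ARSA), act on heparan sulfate (NAGLU) and glycogen (GAA), and split glucuronides (GUSB). None of these 4 calls held without replicate 2 of the YAPKO2 trametinib libraries. Against sgCON with trametinib, YAPKO2 cells had higher NAGLU and NEU1, by 0.46 ± 0.14 and 0.58 ± 0.17 (adjusted p = 0.0134 and 0.0146), and GAA was higher in sgCON than in parental cells by 0.50 ± 0.13 (adjusted p = 0.0148). With the GC correction the NAGLU difference was 0.15 and not called (adjusted p = 0.203), and that of NEU1 was 0.37. The NAGLU and NEU1 calls stood in 3 and 4 of 6 fits that left out 1 library, both being lost without sgCON trametinib replicate 2 or YAPKO2 trametinib replicate 2, and the GAA call was lost without parental replicate 1 or sgCON DMSO replicate 3. HEXA, PPT1 and SMPD1, which act on gangliosides, palmitoylated proteins and sphingomyelin, were called in 0 comparisons. With the GC correction HEXA and SMPD1 were called higher with trametinib in YAPKO2 cells, by 0.32 and 0.59 (limma adjusted p = 0.0321 and 0.0435).

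The cofactors are PSAP, the precursor of the saposins that present lipids to hydrolases, and GRN, progranulin. GRN stood at 19.4, 24 and 36.4 FPKM in parental, 45.5, 45.4 and 41.8 in sgCON DMSO and 51.1, 45.1 and 51.8 in sgCON trametinib libraries. YAPKO1 cells had 33.1, 35.1 and 47.5 with DMSO and 47.2, 41 and 53 with trametinib, and YAPKO2 cells had 36, 44.6 and 37.1 with DMSO and 73.2, 92.3 and 46.4 with trametinib. Its YAPKO2 trametinib libraries ranged from 46.4 to 92.3 and were all above those with DMSO (0.79 ± 0.23, adjusted p = 0.019). That call stood in 2 of 6 fits that left out 1 library and was lost without replicate 1 or 2 of that group or replicate 1 or 3 of YAPKO2 with DMSO, and the higher level in sgCON than in parental cells (0.77 ± 0.23, adjusted p = 0.026) stood in 1 of 6 fits that left out 1 library. PSAP stood at 129.8, 123 and 123 FPKM in parental, 118, 115 and 122 in sgCON DMSO and 119, 123 and 126 in sgCON trametinib libraries. YAPKO1 cells had 94.6, 96.4 and 134 with DMSO and 135, 109.7 and 136 with trametinib, and YAPKO2 cells had 134, 146 and 142 with DMSO and 177, 204 and 122 with trametinib. The YAPKO2 and sgCON trametinib groups overlapped, and their difference was 0.42 ± 0.15 (adjusted p = 0.0419). The call stood in 1 of 6 fits that left out 1 library and in 4 of the 10 alternative settings, and the difference was 0.24 with the GC correction.

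Of the 5 proton pump genes ATP6AP1, an accessory subunit, differed in 3 comparisons. It stood at 25.2, 20.8 and 25.6 FPKM in parental, 18.2, 18.6 and 15.4 in sgCON DMSO and 25.5, 22.5 and 22.1 in sgCON trametinib libraries. YAPKO1 cells had 17.4, 18.6 and 25.2 with DMSO and 29.2, 24.8 and 32 with trametinib, and YAPKO2 cells had 24.9, 30.6 and 27.1 with DMSO and 45.2, 58.4 and 34 with trametinib. The YAPKO2 trametinib libraries were the highest of all groups, and YAPKO2 libraries with DMSO were all above sgCON with DMSO. ATP6AP1 changed with trametinib by 0.70 ± 0.17 in YAPKO2 cells (adjusted p = 0.00872), against 0.42 ± 0.17 in sgCON and 0.49 ± 0.17 in YAPKO1 cells (adjusted p = 0.21 and 0.0985). In YAPKO2 against sgCON cells it was higher by 0.65 ± 0.17 with DMSO and 0.93 ± 0.17 with trametinib (adjusted p = 0.0113 and 0.000546). The DMSO difference was lost without sgCON DMSO replicate 3 or YAPKO2 DMSO replicate 2. ATP6V0D1, a subunit of the membrane part of the pump, was 21.9, 25.2 and 22.4 FPKM in parental, 24.7, 27.6 and 23.1 in sgCON DMSO and 31.4, 26 and 30.8 in sgCON trametinib libraries. YAPKO1 cells had 21.2, 27.7 and 36.2 with DMSO and 31.6, 27.6 and 37.5 with trametinib, and YAPKO2 cells had 26.1, 40.1 and 29.2 with DMSO and 49.1, 59.9 and 31.7 with trametinib. All YAPKO2 trametinib libraries were above those of sgCON, the closest pair being 31.4 and 31.7 (0.62 ± 0.22, adjusted p = 0.0323). This call stood in 1 of 6 fits that left out 1 library, and the difference was 0.36 with the GC correction. ATP6V1H, a subunit of the cytosolic part, was 31.6, 28.4 and 31.9 FPKM in parental and 42.6, 49 and 40.2 in sgCON DMSO libraries, with no overlap (0.51 ± 0.10, adjusted p = 0.00133). In the other groups ATP6V1H lay between 33.6 and 42.8 FPKM. ATP6V0E1 and ATP6V1A, subunits of the membrane and the cytosolic part, were called in 0 comparisons.

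The genes called higher with trametinib in YAPKO2 cells had GC-rich transcripts, with a median GC content of 60.9% (42.8% to 66.0%), against 52.5% for the 27 genes not called. Over all tested genes the median change in that comparison rose from -0.15 in the lowest of 10 bins by GC content (bin median 37.0%) to 0.14 in the highest (64.2%). The trend was not particular to YAPKO2 cells. Between the same bins the median change rose from -0.15 to 0.1 in sgCON and from -0.19 to 0.09 in YAPKO1 cells. In YAPKO2 cells WIPI1 (47.8%) and SCARB2 (42.8%) lie outside this trend. GRN, NEU1, ATP6AP1, NAGLU, ARSA, CTSF and GAA were highest in replicate 2 and lowest in replicate 3 of the YAPKO2 trametinib libraries, the order of the GC trend of those libraries. After a spline correction for GC content in each library, 16 genes were called higher and 2 lower in that comparison (46.2% of 39), among them all 12 called without it. The share of all genes called rose with it too, from 20.1% to 28.8%, and the median change of the 39 genes fell from 0.24 to 0.13. In YAPKO2 against sgCON cells with DMSO the correction moved the count from 6 to 13 (33.3% of 39), where 32.2% of all genes were called with it. Without the 3 libraries with the highest GC trend of their groups the count with trametinib in YAPKO2 cells was 7.

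**Figure D4:**
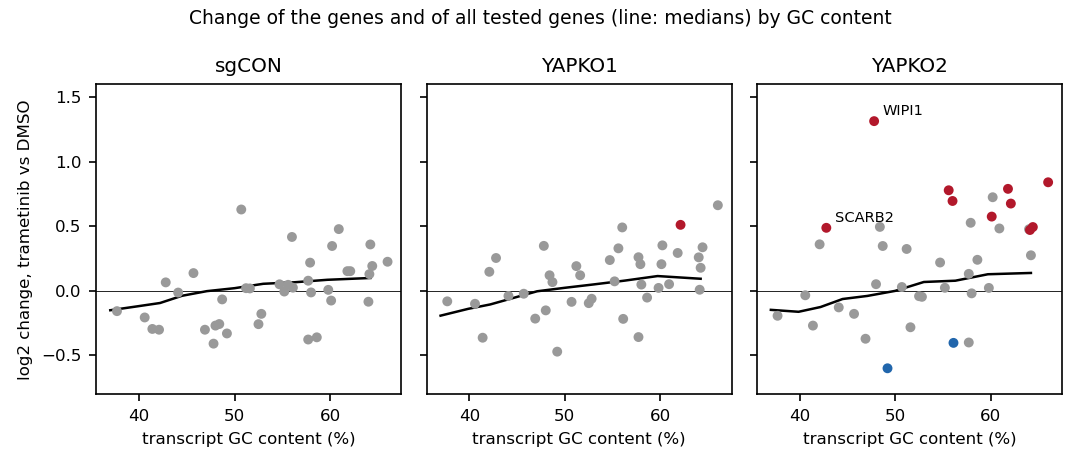
Change with trametinib (y axis, difference of log2(FPKM + 0.5)) against transcript GC content (x axis, percent) of the 39 tested genes in sgCON, YAPKO1 and YAPKO2 cells; red is called higher, blue called lower, grey not called, and the line joins the medians of all tested genes in 10 bins by GC content. The line rises from -0.15 to 0.14 in YAPKO2 cells, and WIPI1 at 1.32 lies far above it.

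The promoter motifs shown above were set beside the calls with trametinib in YAPKO2 cells. Of the 5 genes with TCACGTGA in the promoter window GAA was called higher, while LAMP1, CTSA, MCOLN1 and ATP6V0D1 changed by 0.02, 0.13, 0.48 and 0.53 and were not called. CTSF and NEU1, called higher, hold CACGTG, and GRN and SCARB2, also called higher, hold TCATGTG. Genes that were not called hold these motifs too: CTSD, which changed by 0.48, holds CACGTG, and TPP1, PPT1, GLMP and CTSA, which changed by 0.03, -0.18, 0.24 and 0.13, hold TCATGTG. WIPI1, SGSH, NAGLU, ARSA and ATP6AP1 were called higher too, and of these WIPI1 and ATP6AP1 have promoters in the table, with none of the 3 motifs. In the sgCON cells 0 of these genes were called with trametinib. With the GC correction CTSD and ATP6V0D1 were called higher in YAPKO2 cells, by 0.33 and 0.42 (limma adjusted p = 0.0288 and 0.0295). So were MAP1LC3B and SMPD1, whose promoters held none of the 3 motifs. LAMP1, CTSA, MCOLN1, TPP1, PPT1 and GLMP stayed uncalled. In sgCON cells ATP6AP1 was called higher with that correction, by 0.38 (limma adjusted p = 0.0341).

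Other genes of the same pathways were read from 4 further lists. Their calls were not checked with the GC correction, the other settings or the fits that left out 1 library. Of 36 tested other lysosomal hydrolases and membrane proteins, trametinib raised 2 and lowered 4 in sgCON cells, 3 and 3 in YAPKO1 cells, and 5 and 5 in YAPKO2 cells. That is 16.7%, 16.7% and 27.8% of the list, where 5.22%, 7.85% and 20.1% of all genes were called. CD68, a lysosomal membrane protein, fell in sgCON cells from 2.01, 2.04 and 2.43 FPKM to 0.572, 0.166 and 0.912 (-1.40 ± 0.29, adjusted p = 0.00663), with no overlap. CTSV, a cysteine protease, fell in YAPKO2 cells from 5.58, 6.6 and 4.74 to 2.87, 2.04 and 4.21 FPKM (-0.83 ± 0.23, adjusted p = 0.0168). FUCA1, a fucosidase, rose in YAPKO1 cells from 0.728, 0.899 and 0.76 to 1.68, 1.58 and 1.6 FPKM (0.71 ± 0.20, adjusted p = 0.0314). The calls of this list thus went in both directions in each line.

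Of 16 other V-ATPase subunits, 1 was higher in sgCON, 1 in YAPKO1 and 2 in YAPKO2 cells with trametinib, and 0 were lower. The shares called, 6.2%, 6.2% and 12.5%, stood near or below the 5.22%, 7.85% and 20.1% of all genes. ATP6V1G2, the form of the G subunit found in neurons, was called in all 3 lines. It went from 5.42, 5.59 and 4.82 to 8.96, 8.54 and 8.59 FPKM in sgCON, from 3.81, 5.9 and 5.89 to 10.8, 11 and 12.9 in YAPKO1 and from 9.29, 9.45 and 8.05 to 19.3, 25 and 18.6 in YAPKO2 cells, with no overlap in any line. Its changes were 0.67 ± 0.16, 1.10 ± 0.16 and 1.18 ± 0.16 (adjusted p = 0.0216, 0.000332 and 6.61e-05). ATP6V0A1 rose in YAPKO2 cells, from 8.71, 8.78 and 7.83 to 14, 17.6 and 12.9 FPKM, by 0.77 ± 0.13 (adjusted p = 0.000531), and this response was above that of sgCON by 0.77 ± 0.19 (adjusted p = 0.0247).

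Of 31 other autophagy genes, trametinib changed 0 in sgCON cells, raised 2 and lowered 2 in YAPKO1 cells, and raised 5 and lowered 3 in YAPKO2 cells. The shares were 0%, 12.9% and 25.8%, against 5.22%, 7.85% and 20.1% of all genes. WDR45, a relative of WIPI1, rose from 13.5, 14.3 and 20.2 to 28.6, 26.6 and 30.8 FPKM in YAPKO1 and from 14.2, 17.4 and 15.7 to 36.7, 39.3 and 25.7 in YAPKO2 cells, by 0.84 ± 0.16 and 1.06 ± 0.16 (adjusted p = 0.00361 and 0.000171). In sgCON cells it went from 13.4, 13.7 and 13.7 to 18.4, 17.1 and 19.6 FPKM, with no overlap and without a call (0.42 ± 0.16, adjusted p = 0.176). GABARAP rose in YAPKO2 cells from 241, 314 and 266 to 477, 577 and 352 FPKM, by 0.76 ± 0.14 (adjusted p = 0.00125). It was higher with trametinib in sgCON and YAPKO1 cells too, with no overlap and without a call (0.44 and 0.47, adjusted p = 0.0987 and 0.0586). The YAPKO2 response of GABARAP minus that of sgCON, 0.316 ± 0.205, was not called (adjusted p = 0.494). OPTN, an autophagy receptor, rose in YAPKO2 cells from 0.45, 0.575 and 1.19 to 1.69, 1.34 and 2.38 FPKM, by 0.92 ± 0.22 (adjusted p = 0.00764), and its response was above that of sgCON by 1.17 ± 0.32 (adjusted p = 0.0421). Like WIPI1, OPTN was lower in both knockout lines than in sgCON cells with DMSO. The differences were -0.91 ± 0.22 in YAPKO1 and -0.89 ± 0.22 in YAPKO2 cells (adjusted p = 0.0125 and 0.00764). Unlike WIPI1, OPTN was lower in sgCON than in parental cells (-0.96 ± 0.22, adjusted p = 0.00668). Its levels in the knockout lines with DMSO lie near the pseudocount of 0.5, which understates changes.

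Of 22 tested regulators of mTORC1 and of the MiT/TFE factors, trametinib changed 0 in sgCON cells, lowered 1 in YAPKO1 cells, and raised 5 and lowered 2 in YAPKO2 cells (0%, 4.5% and 31.8%, against 5.22%, 7.85% and 20.1% of all genes). RHEB, the GTPase that activates mTORC1, fell from 112, 117 and 100.5 to 87.5, 98.5 and 80.1 FPKM in YAPKO1 (-0.31 ± 0.09, adjusted p = 0.0485) and from 108, 105 and 117 to 72.6, 69 and 78 in YAPKO2 cells (-0.59 ± 0.09, adjusted p = 0.000205). TSC2, which inactivates RHEB, rose in YAPKO2 cells from 32.8, 39.6 and 33.9 to 65.6, 72.7 and 45.4 FPKM (0.76 ± 0.17, adjusted p = 0.00345). RRAGB, a Rag GTPase that brings mTORC1 to the lysosome, rose there from 6.52, 5.03 and 5.92 to 11.5, 9.33 and 15 FPKM (0.96 ± 0.21, adjusted p = 0.00363). The differences of these responses from that of sgCON were -0.32 ± 0.13 for RHEB, 0.21 ± 0.23 for TSC2 and 0.85 ± 0.30 for RRAGB, and were not called (adjusted p = 0.211, 0.743 and 0.128). In YAPKO2 cells with trametinib, TSC2, WDR45, GABARAP, ATP6V0A1 and ATP6V1G2 were highest in replicate 2 and lowest in replicate 3. That is the order of the GC trend of those libraries. RHEB, RRAGB, OPTN and CTSV had the reverse order, and the part of the GC trend in these calls was not tested.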

How the data were processed

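RNA sequencing of total RNA, with ribosomal RNA removed, was done on 21 NLF samples, per the labels' protocols. The authors deposited FPKM values of 57820 genes, in a table they call calibrated. Per the submitters' processing notes, STAR 2.4.2 and RSEM 1.3.0 were used with the hg19 genome build. Whether strand was used in the quantification is not given in the sources used here, and 17 of the 40 genes have an exon overlapped by another gene in GENCODE v29, so values of overlapping and antisense genes are uncertain. The calibrated table holds the other deposited FPKM table multiplied by 1 factor per library (0.927 to 1.07). No counts were used, so values have no counting interval.

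Samples were grouped by line and treatment from the labels. The parental samples match the columns headed only DMSO and a number. The sample labels put DMSO at 0.01%, whereas the series text has 0.1%. How long the parental samples were cultured is not clear from the labels. No label calls the replicates separate cultures, so p-values reflect only the spread between these libraries, possibly a technical one.

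Libraries were scaled by median ratios, taken against the geometric mean of each gene. Genes reaching 1 FPKM in 3 or more libraries (16092, of which 12164 are protein-coding) were fitted as log2(FPKM + 0.5) with limma (version 3.58.1, R 4.3.3), using a coefficient for each of the 7 groups and eBayes with a trend, and 10 two-sided comparisons were read from that fit. The pseudocount of 0.5 understates changes of low genes. The method was tested on simulated data. The call threshold was 0.05 for the p adjusted over all tested genes by Benjamini and Hochberg. Transcript GC content came from GENCODE v29 (GRCh38) for 96.5% of tested genes, and promoter sequences from RefSeq GRCh38.p14. No hg19 coordinate is given. The number of reads is unknown.

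The 40 genes, the lists and the tests were chosen with earlier results of these data known. All values were given for TFEB, TFE3 and MITF and, in each other role, for up to 4 genes with the largest number of calls, ties by the largest called change. Of each further list up to 3 genes with the largest called change with trametinib were named. YAP1 and DUSP6 served as checks, and ARSG and TMEM79 were added because they overlap described genes, and GALC, NPC2 and ATP6V1E1 after their values were seen. Alternatives were pseudocounts of 0.1 and 1, no filter, the calibrated values without scaling, quantile normalization, only the groups compared, a replicate block, a GC correction (natural spline, 5 degrees of freedom) with and without the block, leaving out 3 libraries with a high GC trend, and leaving out each library. Calls of single genes under them were read for the 40 genes only, and not for the other genes named.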

Additional observations from a re-analysis of the deposited data

Results flagged for a closer look

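The response of WIPI1 to trametinib differed between lines by a test of the difference itself. It was 1.32 ± 0.17 in YAPKO2 and -0.41 ± 0.17 in sgCON cells, a difference of 1.73 ± 0.23 on the log2(FPKM + 0.5) scale (limma adjusted p = 0.000287). All 3 YAPKO2 libraries were higher with trametinib, from 7.29, 6.72 and 10.5 to 20.8, 23 and 18.5 FPKM, and all 3 sgCON libraries were lower, from 19.1, 18.7 and 18.4 to 15.9, 12.7 and 13.5 FPKM. The difference stayed called under the 10 alternative settings and in the 12 fits that left out 1 library, with values of 1.53 to 1.91. The YAPKO1 response minus that of sgCON, 0.76 ± 0.23, was not called (adjusted p = 0.288). The summed fibroblast markers also differ between these groups, from 345 to 468 FPKM in sgCON and from 159 to 577 in YAPKO2 libraries, and their part in the difference was not tested.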

How the results depend on the processing

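Of the 49 calls of single genes in single comparisons, 49 held with a pseudocount of 1, 46 with 0.1, 43 each with the calibrated values without scaling, with quantile normalization and with the GC correction, 42 with the GC correction and the replicate block, 41 with the replicate block, 35 without the 3 libraries of high GC trend, 30 without the filter and 21 with only the groups compared. No call changed direction under any of them. The counts of genes called moved by over 1.5 times in the following cases, and the cause was not tested except that fewer samples enter the fit of only the groups compared. With trametinib the count in sgCON was 0 and became 3 with only the groups compared and 1 with the GC correction. In YAPKO1 it was 1 and became 0 with no filter and with only the groups compared, 5 with the GC correction, 4 with that and the block, and 7 without the 3 libraries. In YAPKO2 it was 12 and became 1 with only the groups compared and 7 without the 3 libraries. Against sgCON with DMSO, YAPKO1 went from 6 to 3 with no filter and 2 with only the groups compared, and YAPKO2 from 6 to 13 with the GC correction and 11 with that and the block. Against sgCON with trametinib, YAPKO1 went from 2 to 1 with a pseudocount of 0.1, with no filter and with only the groups compared, and to 6 with the GC correction, with and without the block. YAPKO2 went from 12 to 5 with no filter and 2 with only the groups compared. The response difference of YAPKO1 went from 0 to 1 (ASAH1) with the GC correction, and that of YAPKO2 from 1 to 5, to 4 with the block added, and to 2 without the 3 libraries. For sgCON against parental cells the count went from 9 to 15 with only the groups compared and to 14 with the GC correction, with and without the block, and without the 3 libraries. With the GC correction more of all genes were called too. In YAPKO1 cells with trametinib 12.8% of the 39 genes were called, beside 14.6% of all genes, and in sgCON cells 2.56% beside 10%. Against sgCON with trametinib it was 15.4% beside 22.3% for YAPKO1, and with DMSO 33.3% beside 32.2% for YAPKO2. For the response differences it was 2.56% beside 0.986% in YAPKO1 and 12.8% beside 10.7% in YAPKO2. For sgCON against parental cells it was 35.9% beside 25.4%. Of the 280 group levels 10 moved by more than 1 SD without scaling.

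Leaving out 1 library gave 0 to 1, 0 to 3 and 7 to 16 calls with trametinib in sgCON, YAPKO1 and YAPKO2, 2 to 4 and 3 to 7 for YAPKO1 and YAPKO2 against sgCON with DMSO, 1 to 2 and 3 to 17 with trametinib, 0 and 1 to 3 for the response differences, and 5 to 9 for sgCON against parental cells.

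No pairing by replicate number was seen, in a check that cannot show that there was none. Deviations of same-numbered libraries correlated at -0.55 to 0.36 over 63 pairs, 4 of them over 0.1. Those of differently numbered libraries correlated at -0.41 to 0.54 over 126 pairs, 15 of them over 0.1. Of the 21 libraries 2 correlated best with their own number. With the replicate block the counts were 0, 1 and 10 with trametinib in sgCON, YAPKO1 and YAPKO2, 4 and 5 for YAPKO1 and YAPKO2 against sgCON with DMSO, 2 and 9 with trametinib, 0 and 1 for the response differences, and 9 for sgCON against parental cells. All genes called with the block were called without it.

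FPKM give no read counts, so the error of low values such as those of TFEB, GLMP and ARSA cannot be split into counting and culture error. With 3 libraries a group the YAPKO2 trametinib libraries carry the widest spread, and that group decides the largest counts. Line and guide cannot be told apart, since each knockout line has 1 guide, and the sgCON line differs from parental cells in 9 of the 39 genes.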

Other observations

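GALC, galactosylceramidase, was chosen from the list of other lysosomal hydrolases after its values were seen. It stood at 0.0393, 0 and 0.0399 FPKM in sgCON cells with DMSO and 0.0382, 0 and 0 with trametinib, and at 2.72, 3.39 and 4.7 in parental cells. YAPKO1 cells had 2.9, 4.33 and 2.3 FPKM with DMSO and 3.22, 2.27 and 2.45 with trametinib, and YAPKO2 cells 1.92, 2 and 1.89 and 2.19, 2.13 and 3.37. The sgCON libraries were thus all below all others, as they were above all others for GLMP. The differences with DMSO on the log2(FPKM + 0.5) scale were 2.77 ± 0.22 for YAPKO1 and 2.21 ± 0.22 for YAPKO2 against sgCON cells, and -2.94 ± 0.22 for sgCON against parental cells (limma adjusted p = 1.47e-07, 9.14e-07 and 1.13e-07).

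NPC2, the cholesterol-binding protein of the lysosomal lumen, was chosen in the same way. It was 19, 17.6 and 17.8 FPKM with DMSO and 29.9, 23 and 31.1 with trametinib in YAPKO1 cells, and 23.1, 25.6 and 26.8 and 36.5, 48.6 and 37.4 in YAPKO2 cells, with no overlap in either line. Its changes were 0.60 ± 0.12 and 0.68 ± 0.12 (limma adjusted p = 0.00487 and 0.000718), against 0.11 ± 0.12 in sgCON cells (adjusted p = 0.706), where it went from 16.3, 16.6 and 18.1 to 17.1, 18.3 and 19.9 FPKM. The differences of these responses from that of sgCON, 0.49 ± 0.17 and 0.56 ± 0.17, were not called (adjusted p = 0.404 and 0.0753). ATP6V1E1, a subunit of the cytosolic part of the proton pump, was lower in both knockout lines than in sgCON cells under both treatments. With DMSO it was 130.5, 131 and 122 FPKM in sgCON, 95.3, 106 and 76.9 in YAPKO1 and 80.8, 85.6 and 94.5 in YAPKO2 cells, with differences of -0.47 ± 0.11 and -0.56 ± 0.11 (adjusted p = 0.00773 and 0.00113). With trametinib the differences were -0.37 ± 0.11 and -0.36 ± 0.11 (adjusted p = 0.0265 and 0.0163).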
